A study of Mus musculus with 6 samples.

Results

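The genes described here encode the extracellular matrix: the collagen chains, the laminin chains, and 27 listed glycoproteins, proteoglycans and crosslinking enzymes that assemble with them. Members were every collagen or laminin gene of the deposited table, by symbol, plus the listed genes. They numbered 82 of 48587 genes (44 collagens, 11 laminins and the 27 others) and were chosen with earlier results of these data known. RNA had been sequenced from 4T1 cells, a mouse mammary carcinoma line of the triple-negative type with mesenchymal features, in 2 groups of 3 libraries from biological triplicates. The METTL7A1 group carried full-length Mettl7a1 cDNA in the pBICEP-CMV-2 vector, driven by a viral CMV promoter, and was kept in G418 after stable transfection. The mock group, the control, carried the vector with no insert according to the study, while its labels repeat the protocol of the Mettl7a1 transfection. Both groups grew in DMEM/F12 with FBS. Whether the transfected cells were 1 clone or a pool is not given in the sources used here, so the p-values below measure the spread between 3 libraries of each line and not between independently made lines. Levels are in cpm, counts scaled to the size of the library, on TMM-scaled sizes, where TMM is the edgeR scaling that sets the bulk of genes equal between libraries, and fold changes are METTL7A1 over mock.

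The extracellular matrix of epithelial cells is laid down in layers. The basement membrane under the cells is a sheet of laminin trimers and a collagen IV network, joined by nidogen and the proteoglycans perlecan and agrin. Fibrillar collagens, the FACIT collagens on their surface, fibronectin and elastic fibres build the interstitial matrix beyond it. Matricellular proteins such as tenascin-C, thrombospondin, osteopontin and SPARC sit in the matrix and act on cell adhesion and signalling more than on its strength. Lysyl hydroxylases modify collagen inside the cell, and lysyl oxidases crosslink it outside. Carcinoma cells make part of this matrix themselves, and fibroblasts of the stroma, which a cell line culture lacks, make much of the rest.

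Library totals were 18386780 to 28459338 counts, so that 3 counts, the limit that a count of 0 allows for counting error only, were worth 0.105 to 0.163 cpm. The log2 cpm of libraries correlated at 0.989 to 0.996 within a group and at 0.961 to 0.967 between groups across the 13166 genes tested, which are not independent replicates. Mettl7a1 itself stood at 1.35 cpm in mock and 383 cpm in METTL7A1 libraries on average, which fits the labels. The matrix genes took 1.53 to 1.57% of all counts in mock and 1.35 to 1.59% in METTL7A1 libraries.

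At the study's filter of 1 cpm in at least 3 libraries, 37 of the 82 genes were tested (14 collagens, 7 laminins and 16 of the listed genes) and 45 were not. The filter used unscaled library totals. Just inside it was Col17a1, with 1.75, 1.44 and 1.33 cpm in mock and 1.35, 1.32 and 1.01 cpm in METTL7A1, and just outside it Col2a1, whose 26, 25 and 29 counts in mock libraries fell below it in mock replicate 2. At an adjusted p under 0.05 by edgeR's quasi-likelihood test, adjusted by Benjamini-Hochberg over all 13166 genes, 19 of the 37 changed (51.4%) against 42.1% of all genes tested. This share is not far from that of the background. Of the 19, 10 rose, beside 21.1% of all genes, and 9 fell, beside 21.0%. At the study's own thresholds, an adjusted p under 0.01 and an absolute log2 fold change over 1.5, 3 of the 37 were called, against 2.48% of all genes. Tnc and Col12a1 were the 2 that fell past them, where 0.866% of all genes did, and Nid1 the 1 that rose, where 1.61% did. Nid1 was among the 37 only through its METTL7A1 libraries, as set out below, so its call cannot be weighed against that share. The libraries of the groups did not overlap for 17 of the 37 genes, and for 51.6% of all genes. The median log2 fold change was -0.01 over the 37 genes and -0.03 over all genes tested, while the median of the absolute values was 0.34 and 0.25. Calls were thus split between the directions, and the text below follows single chains and glycoproteins.

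**Figure D1:**
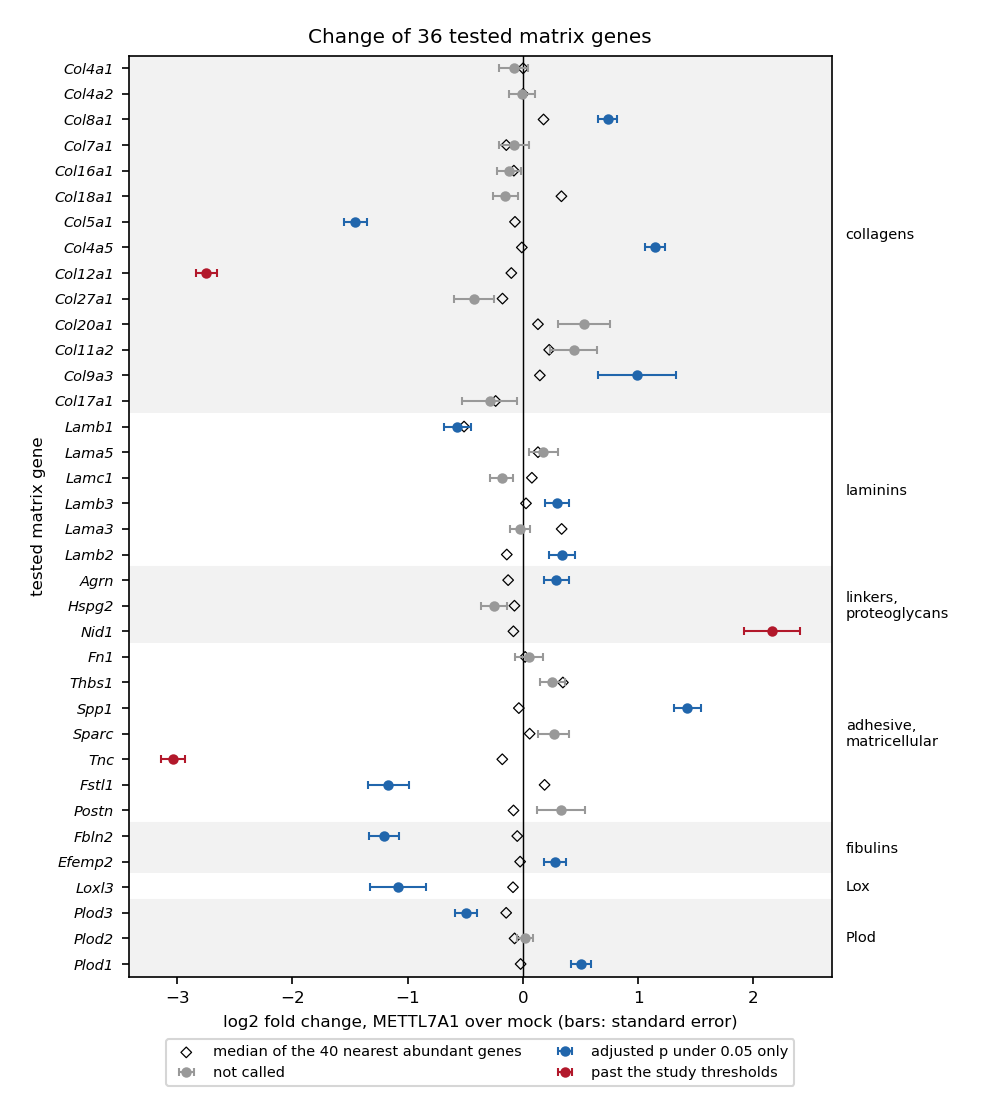
Log2 fold change (METTL7A1 over mock) of 36 tested matrix genes with its standard error, grouped by role and sorted by level within a role. Red points are past the study thresholds, blue points have an adjusted p under 0.05 only, grey points are not called, and open diamonds give the median of the 40 nearest abundant genes on the chromosome: Tnc and Col12a1 lie farthest left and Nid1 farthest right, each well away from its diamond.

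The plot of changes shows 4 genes with large shifts for which the start of the RNA in RefSeq lay at, or within 7 bases of, the edge of the gene in the deposited table. The 250 bases upstream of those starts are printed for these 4 because they lie before the genes that the results turn on, Tnc and Col5a1 among those that fell and Nid1 and Spp1 among those that rose. Sequences are from RefSeq on GRCm38.p6, read on the strand of the gene, 5′ to 3′, with matches to 5 short motifs in capitals.

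Tnc, chr4:64047016-64047265, minus strand: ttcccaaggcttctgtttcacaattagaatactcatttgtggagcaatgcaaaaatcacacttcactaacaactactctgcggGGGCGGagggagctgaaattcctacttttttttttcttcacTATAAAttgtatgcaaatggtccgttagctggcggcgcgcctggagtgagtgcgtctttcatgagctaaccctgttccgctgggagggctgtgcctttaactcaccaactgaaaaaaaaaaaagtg
Col5a1, chr2:27886175-27886424, plus strand: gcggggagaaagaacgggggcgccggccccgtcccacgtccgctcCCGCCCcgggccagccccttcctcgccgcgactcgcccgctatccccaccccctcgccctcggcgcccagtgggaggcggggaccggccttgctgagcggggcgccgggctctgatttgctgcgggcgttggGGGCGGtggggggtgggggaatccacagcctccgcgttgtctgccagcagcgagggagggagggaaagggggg
Nid1, chr13:13437352-13437601, plus strand: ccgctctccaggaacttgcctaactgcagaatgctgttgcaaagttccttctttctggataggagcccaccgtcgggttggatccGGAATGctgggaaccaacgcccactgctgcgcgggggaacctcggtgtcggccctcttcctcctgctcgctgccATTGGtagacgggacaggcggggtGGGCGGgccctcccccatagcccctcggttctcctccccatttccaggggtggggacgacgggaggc
Spp1, chr5:104434861-104435110, plus strand: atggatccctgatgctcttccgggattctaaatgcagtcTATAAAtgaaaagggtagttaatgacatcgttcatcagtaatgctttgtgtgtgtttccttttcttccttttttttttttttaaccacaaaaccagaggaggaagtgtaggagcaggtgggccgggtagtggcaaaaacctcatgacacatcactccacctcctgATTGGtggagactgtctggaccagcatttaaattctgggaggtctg

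The first motif searched, on both strands as were the others, was the TATA box with the letters TATAAA. The AP-1 site was searched as TGANTCA, where N is any base. The GC box was searched as GGGCGG, which a match on the other strand shows as CCGCCC. The CCAAT box, named by its letters, shows on the other strand as ATTGG. The TEAD site was searched as GGAATG. No match of 1 motif overlapped another in the 4 sequences printed. The Tnc region held a TATA box and a GC box, that of Col5a1 2 GC boxes, that of Nid1 a GC box, a CCAAT box and a TEAD site, and that of Spp1 a TATA box and a CCAAT box. The bases G and C made up 44.8% of the Tnc, 43.6% of the Spp1, 64.4% of the Nid1 and 76.4% of the Col5a1 region, so both directions of change held regions rich and poor in GC. Of the 37 tested genes, 28 were matched to a RefSeq promoter by symbol, with 36 entries in all. Among the tested genes not matched were Lama3, Loxl3, Thbs1, Plod2, Lamc1, Col9a3, Fn1 and Col12a1. A GC box stood in 63.9% of the 36 entries and in 32.7% of 32851 promoters of the same length, a TATA box in 19.4% and 12.4%, a CCAAT box in 30.6% and 33.8%, a TEAD site in 11.1% and 12.6%, and an AP-1 site in 0 entries and 6.75% of all promoters. A match was counted anywhere in the window, so its letters need not act as the box or site they are named for. These letters describe the windows and were not tested against the changes.

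Per kilobase of exon, which allows levels to be compared between genes, the matrix transcripts of 4T1 cells were led by Thbs1, Fn1, Fbln2 and Lamb1. These 4 held 46.9 to 48.0% of the summed level per kilobase of the 37 genes in mock libraries and 39.4 to 42.3% in METTL7A1 libraries. Col4a1, Spp1 and Lama5 were among the next in level. By role, the share of the laminins was 29.0% (SD 0.284, n = 3) in mock and 24.4% (SD 0.468, n = 3) in METTL7A1 libraries, and that of the fibulins 15.8% and 8.42%. The adhesive and matricellular glycoproteins held 26.7% and 36.2%, and the collagens 19.2% and 21.3%. The shares of these 4 roles did not overlap between the groups. Shares are parts of a fixed whole, so a fall of Fbln2 raises the other shares even at unchanged levels. The summed level itself overlapped, at 2215 to 2729 cpm per kilobase in mock and 2201 to 2453 in METTL7A1 libraries. Levels summed by role were not compared. The genes whose shares shifted most were Fbln2, from 14.5 to 6.71% of the summed level, and Spp1, from 3.11 to 8.88%.

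**Figure D2:**
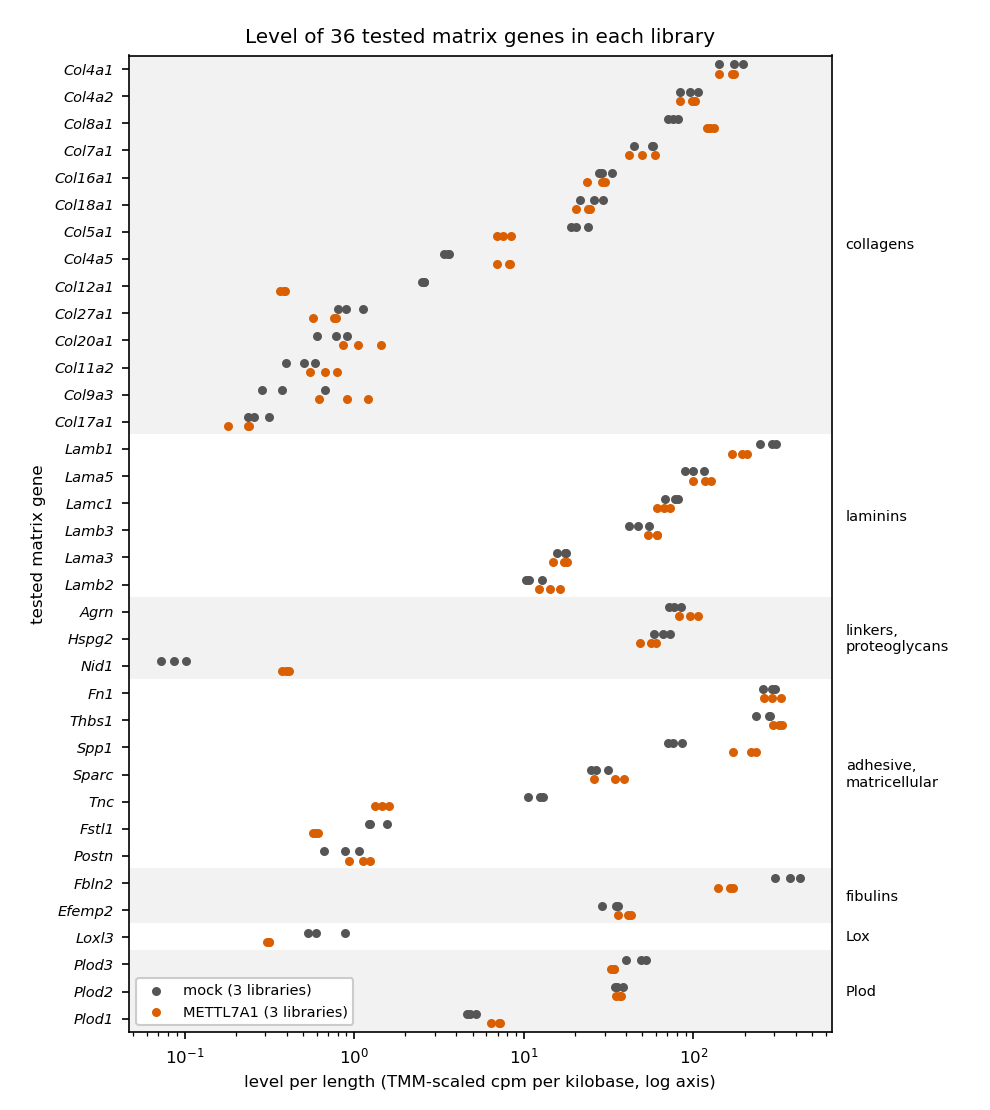
Level per length (TMM-scaled cpm per kilobase, log axis) of 36 tested matrix genes in each of the 6 libraries, grouped by role. Each point is 1 library: mock and METTL7A1 points are apart for Tnc, Col12a1, Col5a1, Fbln2, Spp1 and Nid1 and lie over each other for Fn1, Col4a1 and Col4a2.

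The plot of levels spreads the collagens from Col4a1, at a mean of 166 cpm per kilobase over the 6 libraries, to Col17a1 at 0.245. Of the 14 tested, 5 changed, 3 up and 2 down (35.7%, against 42.1% of all tested genes). Col12a1 (table coordinates on mm10, chr9:79598991-79718720) encodes a FACIT collagen that binds the surface of collagen fibrils. It stood at 31.3, 31.3 and 30.3 cpm in mock replicates 1, 2 and 3 and 4.74, 4.67 and 4.42 cpm in METTL7A1 replicates 1, 2 and 3. The mock libraries lay close together, and every METTL7A1 library was far below them (log2 fold change -2.75, SE 0.09, adjusted p = 9.26e-09). Col5a1 (chr2:27886425-28039514) encodes a minor fibrillar chain that starts the assembly of collagen fibrils. Its levels were 199.9, 170.3 and 159 cpm in mock replicates 1, 2 and 3 and 70.9, 63.7 and 58.7 cpm in METTL7A1 replicates 1, 2 and 3. All METTL7A1 libraries were below all mock libraries (log2 fold change -1.46, SE 0.10, adjusted p = 1.38e-06), close to but short of the study's fold threshold, which it passed without mock replicate 3 (-1.52) or without METTL7A1 replicate 1 (-1.52).

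Col4a5 (chrX:141475385-141689234), a collagen IV chain of specialised basement membranes, rose. It stood at 23.8, 23.4 and 22.1 cpm in mock replicates 1, 2 and 3 and 54.3, 53.7 and 45.6 cpm in METTL7A1 replicates 1, 2 and 3, with no overlap (log2 fold change 1.15, SE 0.09, adjusted p = 2.81e-06). The principal collagen IV chains are Col4a1 and Col4a2, which form the common trimer and are transcribed from a shared head-to-head promoter region. Col4a1 stood at 1298, 1147 and 939 cpm in mock and 1151, 1113 and 935 cpm in METTL7A1 (log2 fold change -0.08, SE 0.13, adjusted p = 0.643), and Col4a2 at 687, 612 and 539 cpm in mock and 660.1, 636 and 534 cpm in METTL7A1 (log2 fold change -0.01, SE 0.11, adjusted p = 0.968). The groups overlapped for both chains, and per kilobase Col4a1 was 1.79 (SD 0.0788, n = 3) times Col4a2 in mock and 1.71 (SD 0.00442, n = 3) times in METTL7A1 libraries. Col4a5 was a small part of this network in either group, at 0.0210 of the Col4a1 level per kilobase in mock and 0.0487 in METTL7A1. The exons of Col4a1 and Col4a2 overlap by 22 bases on opposite strands, and how strand was treated in counting is not given in the sources used here.

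Col8a1, a short-chain collagen that forms sheet-like networks, stood at 389, 412 and 359 cpm in mock replicates 1, 2 and 3 and 618, 677 and 638 cpm in METTL7A1 replicates 1, 2 and 3. The METTL7A1 libraries were all above the mock libraries (log2 fold change 0.74, SE 0.08, adjusted p = 5.37e-05), and it was the second collagen by mean level per kilobase. Col9a3, a FACIT chain best known from cartilage, was called higher at a low level, with 1.15, 0.867 and 2.05 cpm in mock and 3.66, 1.90 and 2.76 cpm in METTL7A1 (log2 fold change 0.99, SE 0.33, adjusted p = 0.0335). Its groups overlapped, and the call was lost without mock replicate 1 (adjusted p = 0.11), mock replicate 2 (0.117), METTL7A1 replicate 1 (0.111) or METTL7A1 replicate 3 (0.0646) and with the median of its neighbours as an offset (0.0778), with a range of 0.000348 to 0.117 over its alternatives. The 9 collagens not called had log2 fold changes from -0.43 to 0.53. They included Col7a1 of anchoring fibrils (log2 fold change -0.08, adjusted p = 0.674), Col16a1 (log2 fold change -0.12, adjusted p = 0.367) and Col18a1, the source of endostatin (log2 fold change -0.15, adjusted p = 0.298). Col20a1 (log2 fold change 0.53, adjusted p = 0.0794) and Col27a1 (log2 fold change -0.43, adjusted p = 0.07) were closest to the threshold. Leaving out 1 library brought a call for Col20a1 (adjusted p = 0.0318 without mock replicate 3, 0.0374 without METTL7A1 replicate 3), Col27a1 (0.0463 without mock replicate 2) and Col18a1 (0.0395 without mock replicate 3). Col20a1 was also called with no abundance filter (0.0205). Over all alternatives the adjusted p ranged over 0.0205 to 0.277, 0.0463 to 0.311 and 0.00656 to 0.872 for these 3.

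**Figure D3:**
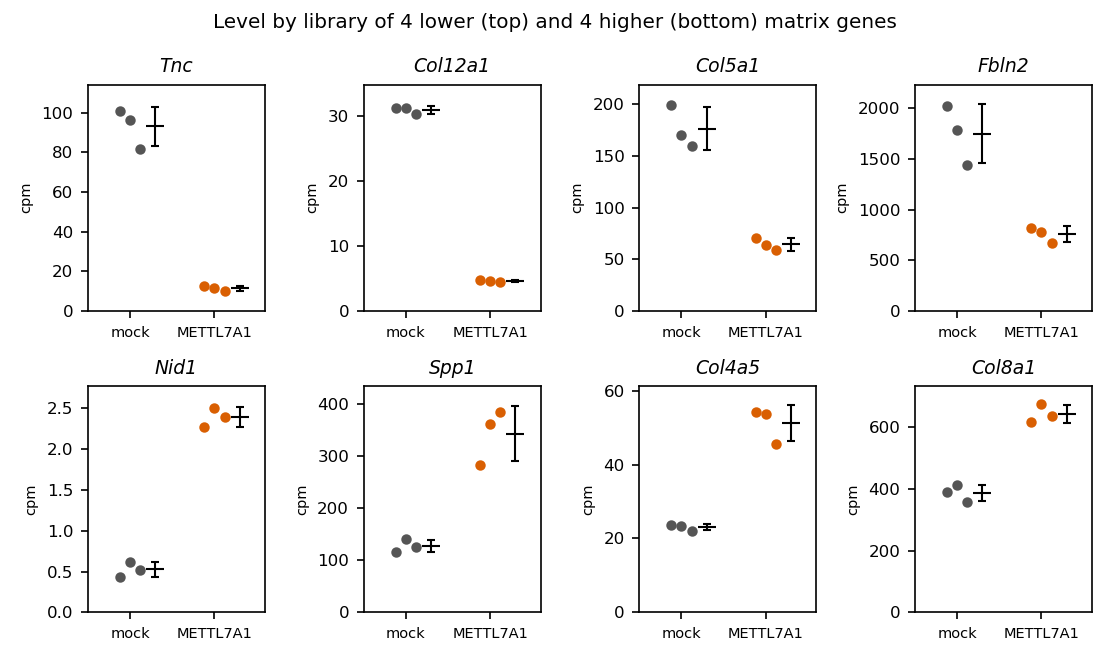
Level in cpm (linear axis from 0) of 4 genes that fell (top: Tnc, Col12a1, Col5a1, Fbln2) and 4 that rose (bottom: Nid1, Spp1, Col4a5, Col8a1) in each library, in replicate order. Points are libraries and the bars beside them give the mean and SD of 3: no mock and METTL7A1 point overlaps in any of the 8 panels.

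The 8 genes in the plot of single libraries were picked from those called, so a distance between their groups follows from the choice. The spread within a group was small against that distance for all 8 genes. For Fbln2, Tnc and Col5a1 the mock libraries themselves differed, with mock replicate 1 highest and mock replicate 3 lowest.

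Among the laminin chains described here, Lamb1 fell and Lamb2 and Lamb3 rose at an adjusted p under 0.05. Lamb3 (chr1:193207725-193343878) and Lama3 encode chains of the laminin of hemidesmosomes, the junctions that hold epithelial cells to the basement membrane. Lamb3 stood at 279, 243 and 213 cpm in mock replicates 1, 2 and 3 and 310.3, 314 and 276 cpm in METTL7A1 replicates 1, 2 and 3. It was called higher (log2 fold change 0.29, SE 0.10, adjusted p = 0.037), although METTL7A1 replicate 3 was below mock replicate 1. Lama3 stood at 189, 188 and 169 cpm in mock replicates 1, 2 and 3 and 192, 185 and 159 cpm in METTL7A1 replicates 1, 2 and 3. Its groups overlapped, and it was not called (log2 fold change -0.03, SE 0.09, adjusted p = 0.822). Per kilobase, Lamb3 was 2.81 (SD 0.247, n = 3) times Lama3 in mock and 3.53 (SD 0.126, n = 3) times in METTL7A1 libraries, without overlap.

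Lamb1 (chr12:31265234-31329644) encodes the beta chain common to most laminins and was the most abundant laminin per kilobase. It stood at 1785, 1705 and 1435 cpm in mock replicates 1, 2 and 3 and 1201, 1133 and 988 cpm in METTL7A1 replicates 1, 2 and 3, the 2 groups being apart (log2 fold change -0.57, SE 0.12, adjusted p = 0.0024). The 40 nearest abundant genes on chromosome 12 had a median log2 fold change of -0.51, so Lamb1 moved by about as much as its surroundings, and with that median taken as an offset it was at -0.06 (adjusted p = 0.747, with 3.63e-08 to 0.747 over its alternatives). Lamb2, the beta chain that can take its place, stood at 72.1, 60.0 and 58.0 cpm in mock and 92.1, 79.8 and 68.8 cpm in METTL7A1 (log2 fold change 0.34, SE 0.11, adjusted p = 0.0294), with overlapping groups. Lamb1 was 25.0 (SD 2.04, n = 3) times Lamb2 per kilobase in mock and 13.4 (SD 0.691, n = 3) times in METTL7A1 libraries. Lama5, the alpha chain of the laminin of most adult epithelia, stood at 1312, 1137 and 1009.7 cpm in mock and 1443, 1335 and 1132 cpm in METTL7A1 (log2 fold change 0.18, SE 0.12, adjusted p = 0.277). Lamc1, the common gamma chain, stood at 621, 597 and 520.0 cpm in mock and 553, 512 and 463 cpm in METTL7A1 (log2 fold change -0.19, SE 0.10, adjusted p = 0.147). Neither was called, and the groups overlapped for both.

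The calls of Lamb2 and Lamb3 did not hold in every alternative. That of Lamb3 was lost without mock replicate 2 (adjusted p = 0.0892), mock replicate 3 (0.0788) or METTL7A1 replicate 2 (0.12) and with the offset of its neighbours (0.0672), within 0.00331 to 0.12 over its alternatives. That of Lamb2 was lost without mock replicate 2 (0.092), mock replicate 3 (0.0559), METTL7A1 replicate 1 (0.0697) or METTL7A1 replicate 2 (0.0738), within 0.000307 to 0.092. Lamc1 was called lower without mock replicate 3 only (0.038, within 0.038 to 0.441).

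**Figure D4:**
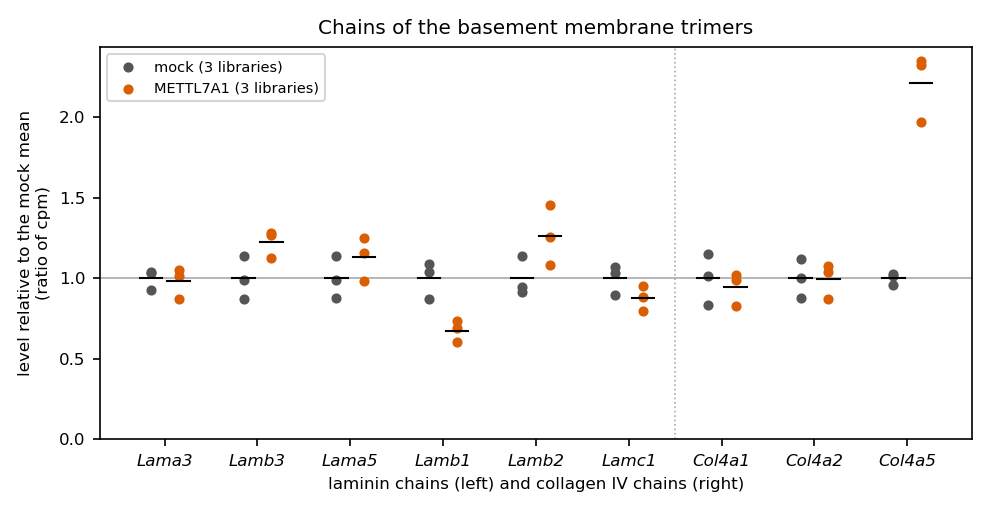
Level of 6 tested laminin chains (left) and collagen IV chains (right) in each library, as a ratio to the mean of the mock libraries (cpm, linear axis from 0), with bars at the group means. Lamb1 lies below 1 and Col4a5 above 1 in every METTL7A1 library, while the points of Lama3, Lamc1, Lama5, Col4a1 and Col4a2 mix.

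The plot of basement membrane chains sets the chains of each trimer side by side. Lamb1 over Lamc1 per kilobase was 3.69 (SD 0.0811, n = 3) in mock and 2.84 (SD 0.0523, n = 3) in METTL7A1 libraries, and Lamc1 over Lama5 was 0.754 and 0.585, each without overlap. Lamb1 moved by about as much as its neighbours, and Lamc1 and Lama5 were not called, as given above. No background of ratios between other gene pairs was taken.

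Of the linkers of the basement membrane, Nid1 (nidogen, chr13:13437602-13512275), which bridges laminin and collagen IV, showed the largest rise of the tested matrix genes. It was at 0.437, 0.619 and 0.523 cpm in mock replicates 1, 2 and 3 and 2.26, 2.51 and 2.39 cpm in METTL7A1 replicates 1, 2 and 3, from 8, 15 and 13 counts in mock and 42, 74 and 59 counts in METTL7A1 libraries. No mock library reached the lowest METTL7A1 library (log2 fold change 2.16, SE 0.24, adjusted p = 5.03e-05). Nid1 passed the filter through its METTL7A1 libraries only, so a gene at its mock level in both groups would not have been tested. Per kilobase it was the least abundant of the 37 genes. Agrn, a heparan sulfate proteoglycan that also clusters acetylcholine receptors at the neuromuscular junction, stood at 660.2, 602 and 556 cpm in mock and 830.0, 747 and 644 cpm in METTL7A1 (log2 fold change 0.29, SE 0.11, adjusted p = 0.0499). Its groups overlapped, and it lost its call without mock replicate 2 (adjusted p = 0.111), mock replicate 3 (0.0918), METTL7A1 replicate 1 (0.0997) or METTL7A1 replicate 2 (0.12) and when each library had to hold at least 10 counts of a gene (0.0502), within 0.00803 to 0.12 over its alternatives.

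Hspg2, the gene of perlecan, stood at 1030.2, 935 and 828 cpm in mock and 855, 800.4 and 692 cpm in METTL7A1 and was not called (log2 fold change -0.25, SE 0.11, adjusted p = 0.0891). It was called lower without mock replicate 3 (adjusted p = 0.0246) or METTL7A1 replicate 1 (0.0343) and by DESeq2 (0.0289), within 0.0246 to 0.345 over its alternatives.

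Tnc was the tested matrix gene with the largest change in either direction. Tenascin-C (chr4:63959785-64047015), a hexameric glycoprotein of embryonic and tumour stroma that loosens adhesion to fibronectin, stood at 101, 96.3 and 81.8 cpm in mock replicates 1, 2 and 3 and 12.4, 11.4 and 10.3 cpm in METTL7A1 replicates 1, 2 and 3. The METTL7A1 libraries lay far below all mock libraries (log2 fold change -3.04, SE 0.10, adjusted p = 9.26e-09). Its substrate partner Fn1, fibronectin, was second in level per kilobase and stood at 2556, 2450.0 and 2188 cpm in mock and 2776, 2460.3 and 2220.5 cpm in METTL7A1. The groups overlapped for Fn1, and it was not called (log2 fold change 0.05, SE 0.12, adjusted p = 0.761). Col27a1, 625 kb away on the same chromosome, had -0.43, and the 40 abundant genes nearest to Tnc had a median of -0.18.

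Spp1 (osteopontin, chr5:104435118-104441050), a secreted ligand of integrins and CD44, rose. It stood at 116, 141 and 125 cpm in mock replicates 1, 2 and 3 and 283, 362 and 383 cpm in METTL7A1 replicates 1, 2 and 3. All METTL7A1 libraries were above all mock libraries (log2 fold change 1.43, SE 0.12, adjusted p = 5.16e-06). It passed the study's thresholds without METTL7A1 replicate 1, the lowest of its group (1.56), or without mock replicate 2 (adjusted p = 1.81e-05, within 1.86e-50 to 0.000175 over its alternatives). On the same strand, 461 bases of its exons are shared with Gm42793, which held at most 96 counts in any library. Spp1 is also a gene of macrophages, and markers of those cells are given at the end.

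Fstl1, a secreted SPARC-family glycoprotein that binds BMPs, stood at 5.90, 4.70 and 4.63 cpm in mock replicates 1, 2 and 3 and 2.16, 2.27 and 2.31 cpm in METTL7A1 replicates 1, 2 and 3. The groups were apart at this low level (log2 fold change -1.17, SE 0.18, adjusted p = 0.000354). The other tested matricellular genes were not called. Thbs1, the leading matrix transcript per kilobase and an activator of latent TGF-β, stood at 1647, 1619 and 1369 cpm in mock and 1952, 1856 and 1726 cpm in METTL7A1 (log2 fold change 0.26, SE 0.11, adjusted p = 0.0795). Every METTL7A1 library was above every mock library, the 40 nearest abundant genes had a median of 0.35, and with that offset Thbs1 was at -0.09 (adjusted p = 0.569, within 0.00601 to 0.569 over its alternatives). Thbs1 was called higher with upper quartile scaling (0.0468), with no abundance filter (0.0411), without the 20 most abundant genes (0.039) and by DESeq2 (0.00601). Sparc, which binds collagen and regulates its assembly, stood at 57.2, 72.0 and 61.0 cpm in mock and 59.7, 79.3 and 89.8 cpm in METTL7A1 (log2 fold change 0.27, SE 0.13, adjusted p = 0.13). It was called higher without METTL7A1 replicate 1 (adjusted p = 0.00511) and with no abundance filter (0.00527, within 0.00511 to 0.42 over its alternatives). Postn, periostin, was low in all libraries at 2.19, 3.51 and 2.90 cpm in mock and 3.72, 4.06 and 3.08 cpm in METTL7A1 (log2 fold change 0.33, SE 0.21, adjusted p = 0.236).

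Both tested fibulins changed, in opposite directions. Fbln2 (chr6:91212455-91272540), which binds nidogen, fibronectin and elastic fibres, was the most abundant matrix transcript per kilobase in mock libraries. It stood at 2022, 1781 and 1439.8 cpm in mock replicates 1, 2 and 3 and 819, 782 and 672 cpm in METTL7A1 replicates 1, 2 and 3. The groups did not overlap (log2 fold change -1.21, SE 0.13, adjusted p = 4.28e-05), and per kilobase its mean went from 365 to 158 cpm. Efemp2, a fibulin needed to assemble elastic fibres, stood at 64.1, 65.8 and 53.3 cpm in mock and 66.5, 76.1 and 78.7 cpm in METTL7A1. Its groups were apart by less than 1 cpm (log2 fold change 0.28, SE 0.09, adjusted p = 0.0354). The call was lost without mock replicate 3 (adjusted p = 0.0836), METTL7A1 replicate 2 (0.114) or METTL7A1 replicate 3 (0.107), within 0.0039 to 0.114 over its alternatives. It was also lost with replicate number as a block, as given at the end.

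Of the enzymes that act on collagen lysines, Plod1 rose and Plod3 fell. Plod1 hydroxylates lysines of the triple helix and stood at 18.8, 17.3 and 16.7 cpm in mock replicates 1, 2 and 3 and 25.8, 26.0 and 23.0 cpm in METTL7A1 replicates 1, 2 and 3. Its groups were apart (log2 fold change 0.50, SE 0.09, adjusted p = 0.00105). Plod3, which also adds sugars to hydroxylysine, stood at 172, 161 and 131 cpm in mock and 111, 112 and 106 cpm in METTL7A1, likewise without overlap (log2 fold change -0.50, SE 0.09, adjusted p = 0.00165). Plod2, the enzyme for the telopeptide lysines from which stable crosslinks form, stood at 128, 142 and 131 cpm in mock and 129, 139 and 138 cpm in METTL7A1 and was not called (log2 fold change 0.02, SE 0.07, adjusted p = 0.858). Per kilobase Plod2 over Plod3 was 0.772 (SD 0.112, n = 3) in mock and 1.09 (SD 0.0556, n = 3) in METTL7A1 libraries. The exons of Plod3 share 584 bases with Znhit1 on the opposite strand, a gene with at most 429 counts. Loxl3 was the only lysyl oxidase among the members that was tested. Loxl4, a lysyl oxidase outside the members, was tested as well and called higher (log2 fold change 0.54, SE 0.10, adjusted p = 0.00135). It averaged 215 cpm in mock and 312 cpm in METTL7A1 libraries and was named after its value was seen. Loxl3 stood at 3.61, 2.19 and 2.46 cpm in mock replicates 1, 2 and 3 and 1.29, 1.25 and 1.30 cpm in METTL7A1 replicates 1, 2 and 3. All METTL7A1 libraries were below all mock libraries (log2 fold change -1.08, SE 0.24, adjusted p = 0.00417), but 2826 bases of its exons lie opposite Htra2, which held up to 2122 counts, so that reads of the pair cannot be told apart if strand was not used.

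The 45 genes under the filter show which parts of the matrix were near absent. Bgn, Eln, Lama1 and Lox had 0 counts in every library, which allows up to 0.163 cpm in the shallowest, and 35 of the 45 had at most 10 counts in each library. Genes that define fibroblast matrix were among them. Col1a1 had 22, 11 and 16 counts in mock and 9, 17 and 11 in METTL7A1 libraries, Col1a2 at most 4, Col3a1 at most 2 and Dcn, decorin, at most 3. Fitted without a filter, 41 of the 45 could be tested and 6 were called, 3 higher and 3 lower. Among the 15435 genes under the filter that could be fitted so, 4.72% were called, 2.64% higher and 2.09% lower.

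The 6 genes were called at counts where only large differences can show. Col4a6, whose product pairs with that of Col4a5 and whose gene adjoins it on the X chromosome, had 1, 0 and 0 counts in mock and 8, 8 and 14 in METTL7A1 libraries. Col15a1, a collagen of basement membrane zones related to Col18a1, had 7, 3 and 3 and then 18, 34 and 21 counts. Col24a1, a minor fibrillar chain, had 3, 3 and 2 and then 19, 19 and 13. Each of these 3 was higher in every METTL7A1 library. Fbln1, which binds fibronectin and laminin, had 18, 44 and 47 counts in mock and 9, 13 and 11 in METTL7A1 libraries. Col6a1, of the beaded filaments around cells, had 13, 17 and 16 and then 3, 4 and 6, and Col2a1, the cartilage collagen, had 26, 25 and 29 and then 12, 19 and 13. Each was lower in every METTL7A1 library, on cpm as on counts.

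The tested genes lay on 17 chromosomes. Neighbourhood medians stood out for Lamb1 on chromosome 12 (-0.51), Thbs1 on chromosome 2 (0.35), Lama3 on chromosome 18 (0.34) and Col18a1 on chromosome 10 (0.33). Taken relative to their neighbours, Lamb1 at -0.06 and Thbs1 at -0.09 were not called, as given above. Lama3 and Col18a1 were then called lower, Lama3 at -0.36 (adjusted p = 0.00835, within 0.00835 to 0.987 over its alternatives) and Col18a1 at -0.49 (adjusted p = 0.00656). The medians around Col12a1 (-0.10), Nid1 (-0.08), Fbln2 (-0.05), Col5a1 (-0.07), Spp1 (-0.04) and Col4a5 (-0.01) were small beside the genes' own changes.

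The matrix genes also shared an order of libraries within each group. Mock replicate 1 was the highest of its group for 26 of the 37 genes and mock replicate 3 the lowest for 26, where over all 13166 genes these libraries were highest for 30.2% and lowest for 46.4%. METTL7A1 replicate 1 was the highest for 23 and METTL7A1 replicate 3 the lowest for 27, with 41.0% and 36.5% over all genes. For Fn1, Lamb1, Col4a1, Agrn and Hspg2 these libraries were the highest and the lowest in both groups. The part of this order in the calls was not tested.

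Genes that modify, secrete and process collagen were mixed in direction. Of 31 listed, 23 were tested and 13 were called, 7 higher and 6 lower (56.5%, median log2 fold change -0.02), with the 42.1% of all genes as background. Tgm2, a transglutaminase that crosslinks matrix proteins, was the 1 past the study thresholds, at 17.3 ± 2.38 cpm in mock and 64.5 ± 7.28 cpm in METTL7A1 libraries (SD, n = 3, log2 fold change 1.90, SE 0.11, adjusted p = 5.86e-07). P4ha1, a catalytic subunit of prolyl hydroxylase (log2 fold change 0.73, SE 0.07, adjusted p = 2.74e-05), and Adamts14, which trims procollagen (log2 fold change 0.69, SE 0.09, adjusted p = 0.000147), also rose, with neighbourhood medians of 0.52 and 0.50. P3h3, of the second family of prolyl hydroxylases, rose as well (log2 fold change 0.62, SE 0.09, adjusted p = 0.000284). Without mock replicate 1 the count of 13 was 8. Serpinh1, the collagen chaperone, was not called (log2 fold change 0.17, adjusted p = 0.28), and was chosen for mention after its value was seen.

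Of 43 other matrix proteins listed, 11 were tested and 8 were called, 4 in each direction (72.7%, against 42.1% of all tested genes, median -0.16), none past the study thresholds. Ltbp2, a latent TGF-β binding protein of elastic fibres, went from 431 ± 39.8 cpm to 219 ± 20.6 cpm (SD, n = 3, log2 fold change -0.98, SE 0.10, adjusted p = 1.96e-05), with a neighbourhood median of -0.48. Matn2, a matrilin (log2 fold change -0.81, SE 0.11, adjusted p = 0.000201), and Npnt, the integrin ligand nephronectin (log2 fold change -0.57, SE 0.08, adjusted p = 0.000327), fell, and Ecm1 rose (log2 fold change 0.47, SE 0.09, adjusted p = 0.00144).

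Of 30 listed receptors for matrix, 24 were tested and 10 were called, 6 higher and 4 lower, a share of 41.7% that is near the 42.1% of all genes. Bcam, a receptor for the Lama5 chain, was the 1 past the study thresholds, at 3.74 ± 0.710 cpm in mock and 0.919 ± 0.236 cpm in METTL7A1 libraries (SD, n = 3, log2 fold change -2.01, SE 0.25, adjusted p = 0.000106). Ddr2, a tyrosine kinase that binds fibrillar collagen, rose from 157 ± 5.80 cpm to 259 ± 5.36 cpm (SD, n = 3, log2 fold change 0.72, SE 0.07, adjusted p = 1.73e-05). Itgb5, an integrin beta chain (log2 fold change 0.73, SE 0.10, adjusted p = 0.000163), rose, and Sdc1, a syndecan (log2 fold change -0.72, SE 0.10, adjusted p = 0.00027), fell, the latter with a neighbourhood median of -0.46.

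Markers fixed for epithelial, fibroblast, endothelial, and macrophage and leukocyte cells were set beside these results. The libraries came from a carcinoma line grown in culture, so the markers describe expression in that line and not a mixture of tissue cells. In bulk RNA, fewer cells of a type and less RNA per cell cannot be told apart. All 5 epithelial markers were tested, their sum was 1192 to 1460.2 cpm in mock and 1346 to 1681 cpm in METTL7A1 libraries, and 1 was called, Krt7 (log2 fold change 0.50, adjusted p = 0.00126). Of 6 fibroblast markers only Pdgfra was tested, and it rose (log2 fold change 0.47, adjusted p = 0.00177). Of the markers not tested, Lum and Dpt had 0 counts in every library, Thy1 at most 1, Pdgfrb at most 3 and Fap at most 21. The 6 markers summed to 17.4 to 19.9 cpm in mock and 23.5 to 26.7 cpm in METTL7A1 libraries. None of 5 endothelial markers was tested, at 0.454 to 0.644 and 0.970 to 1.22 cpm in sum. Of 5 macrophage and leukocyte markers, 3 were tested. Cd14 (log2 fold change 1.47, adjusted p = 8.9e-06) and Cd68 (log2 fold change 1.23, adjusted p = 5.05e-05) rose, and Csf1r (log2 fold change 1.68, adjusted p = 0.000506) passed the filter through its METTL7A1 libraries only, with 18, 20 and 12 counts in mock and 46, 73 and 56 in METTL7A1 libraries. The list summed to 12.1 to 13.9 cpm in mock and 29.7 to 34.7 cpm in METTL7A1 libraries. Spp1 moved in the same direction as Cd14 and Cd68. Csf1r cannot add to this, since at its mock level in both groups it would not have been tested. The untested Ptprc and Adgre1 stood at 0.209 and 0 cpm in mock and 0.232 and 0.0113 cpm in METTL7A1 libraries. The culture was of a cell line, so these values are read as expression in that line and not as numbers of macrophages. Whether the rise of Spp1 is linked to those of Cd14 and Cd68 was not tested.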

How the data were processed

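Total RNA was depleted of ribosomal RNA, made into stranded libraries and sequenced on an Illumina NovaSeq instrument. Per the study's methods and processing notes, the authors trimmed reads with BBDuk, aligned pairs to mm10 with STAR 2.5.3a and assigned them to GRCm38 Ensembl genes with featureCounts. The deposited table holds raw counts per gene and the exon length of each gene. How strand and multiply mapped reads were treated is not given in the sources used here. Groups and replicate numbers came from the sample titles, and the labels name no batch.

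The test was edgeR 4.0.16 under R 4.3.3 (glmQLFit and glmQLFTest on TMM-scaled libraries, no covariate, genes with at least 1 cpm in at least 3 libraries, Benjamini-Hochberg adjustment). The study gives its fold threshold as a log FC of 1.5, read here as log2. The SE is the absolute log2 fold change over the root of F. Neighbours are the 40 nearest genes above 2 log2 cpm. Promoter windows cover 250 bases before the RefSeq start. Tests were tried on simulated data first.

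Genes were named by rule: members past the study thresholds, the 10 called members of largest change, the 8 most abundant per kilobase, every tested collagen IV chain, laminin, linker, crosslinking enzyme and listed glycoprotein, up to 6 other collagens, and the 4 called genes of smallest p in each pathway list. 1 tested member is not reported here by name, in the figures or in the sequences, though counts and shares over groups of members include it. Genes named outside it are marked in the text or are members under the filter, chosen after their values were seen. The members and lists were chosen with earlier results of these data known. Alternatives were RLE and upper quartile scaling, no filter, at least 10 counts in every library, omission of the 20 most abundant genes, a replicate block, a neighbourhood offset, a 1.5-fold linear threshold, DESeq2 1.42.0, voom in limma 3.58.1, and each library left out.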

Additional observations from a re-analysis of the deposited data

How the results depend on the processing

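Of the 19 called matrix genes, 13 kept their call under every alternative in which they were tested, 6 lost it in at least 1 (Lamb1, Lamb2, Lamb3, Col9a3, Agrn and Efemp2), and 0 reversed. Of the 18 uncalled genes, 8 were called in at least 1 alternative. Tnc ranged from -3.12 to -2.86 and Col12a1 from -2.76 to -2.65 on the log2 scale. Nid1 was tested in 11 of its alternatives and ranged from 2.07 to 2.29. The count of 19 was 14 to 19 with 1 library left out (14 without METTL7A1 replicate 2), 28 of 78 without a filter, and 18 to 23 otherwise. The count of 3 past the study thresholds was 8 without a filter (with Col15a1, Col24a1, Col4a6, Col6a1 and Fbln1), 5 without the 20 most abundant genes (with Col15a1 and Fbln1), 11 at a 1.5-fold linear threshold, and 2 to 4 with 1 library left out. Nid1 left the tested genes without any 1 METTL7A1 library, since fewer than 3 libraries then reached 1 cpm. It also left them when every library had to hold at least 10 counts, since mock replicate 1 held 8. The count of 3 was then 2. The lists of collagen biosynthesis, other matrix proteins and receptors gave 8 to 14, 7 to 9 and 10 to 12 calls with 1 library left out, the 8 without mock replicate 1, against 13, 8 and 10. Deviations of same-numbered libraries from their group correlated at -0.15, 0.20 and -0.37. With groups this small these values cannot settle whether the numbers pair the samples, and the labels do not say. With replicate number as a block the counts were 18 (Efemp2 not called, adjusted p = 0.0634) and 3 for the matrix genes and 11, 8 and 10 for the lists. Levels under about 1 cpm limit what these libraries can show. Exon overlaps may limit it too, since how strand was treated in counting is not given.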
